A study of Mus musculus with 11 samples.

Results

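Chemokines and their receptors were followed by tissue and by dose in the spleen and liver of mice that drank the small molecule Curaxin-137. The family was taken as every array probe whose gene symbol begins with Ccl, Cxcl, Xcl, Cx3cl, Ccr, Cxcr, Xcr or Cx3cr followed by a digit, which gave 79 of the 45281 probes and 54 genes, 36 of them ligands and 18 receptors. All mice carried the Her2/neu transgene, which gives rise to mammary tumours. Which promoter drives it is not stated by the sources used here. Dosing began at 4 weeks of age and ended at 14 weeks, with Curaxin-137 at 0.1 or 0.2 mg/ml in the drinking water, and controls drank plain water. For spleen, replicate 8 was the only control, replicates 56 and 32 had received 0.1 mg/ml, and replicates 62 and 62_86 had received 0.2 mg/ml. For liver, replicates 1 and 25 were controls, replicates 43 and 55 had received the lower concentration and replicates 73 and 85 the higher one. Curaxins bind DNA, trap the histone chaperone FACT, activate p53 and inhibit NF-kB.

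Chemokines are small secreted proteins that bind G protein-coupled receptors on leukocytes and direct where these cells move. One group is inducible: Cxcl9, Cxcl10 and Cxcl11 are made in response to interferon-gamma and bind Cxcr3 on activated T cells and natural killer cells, while Ccl3, Ccl4 and Ccl5 recruit T cells and myeloid cells. Another group is made constantly by stromal cells of lymphoid organs: Cxcl13 guides B cells through Cxcr5, and Ccl19 and Ccl21 guide T cells and dendritic cells through Ccr7 into the white pulp of the spleen. The liver makes chemokines in hepatocytes, sinusoidal endothelial cells, stellate cells and Kupffer cells, its resident macrophages.

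Cxcl9 and Cxcl10 are near neighbours on mouse chromosome 5, with the gene Art3 between them, and Cxcl13 lies on the same chromosome. The 250 bases before the start of these 3 CXC ligand genes are shown, a choice made with their readings at 0.2 mg/ml known. They are among the ligands that read highest at that dose in an organ. Ccl4 and Ccl5 did so too but had no promoter in the reference used. The sequences are from RefSeq, build GRCm38.p6, and capitals mark matches on either strand to the core of the interferon-stimulated response element (ISRE), which is GAAA on both sides of any 2 bases, or to the NF-kB consensus.
Cxcl9, chr5:92328080-92328329, minus strand: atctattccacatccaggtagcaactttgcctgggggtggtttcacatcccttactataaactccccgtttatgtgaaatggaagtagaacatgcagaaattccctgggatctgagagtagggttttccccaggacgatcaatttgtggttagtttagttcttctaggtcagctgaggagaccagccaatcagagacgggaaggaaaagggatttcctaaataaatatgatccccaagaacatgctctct
Cxcl10, chr5:92348890-92349139, minus strand: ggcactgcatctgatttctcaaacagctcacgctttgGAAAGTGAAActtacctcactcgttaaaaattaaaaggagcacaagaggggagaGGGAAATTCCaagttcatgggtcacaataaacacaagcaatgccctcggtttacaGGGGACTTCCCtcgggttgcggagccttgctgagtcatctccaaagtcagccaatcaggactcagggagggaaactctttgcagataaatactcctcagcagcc
Cxcl13, chr5:95956689-95956938, plus strand: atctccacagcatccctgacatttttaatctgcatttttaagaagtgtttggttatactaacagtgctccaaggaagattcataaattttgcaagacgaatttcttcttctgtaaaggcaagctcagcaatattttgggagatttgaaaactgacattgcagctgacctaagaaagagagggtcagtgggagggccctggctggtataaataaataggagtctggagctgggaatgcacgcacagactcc
The Cxcl10 window held 1 ISRE core match, whose first base lay at -213 from the start, and 3 NF-kB matches, at -159, -104 and -103. The last 2 overlap each other and form the second long run of capitals. The windows of Cxcl9 and Cxcl13 held no match to either motif, nor to the interferon-gamma activated site (GAS), TTCNNNGAA, for which the Cxcl10 window held none. Of the 54 family genes, 40 had a promoter in the table. The NF-kB consensus was found in 9 of these 40 (22.5%), against 7.01% of all 27025 promoters. The ISRE core was found in 3 of 40 (7.5%), against 3.04% of all, and the GAS in 4 of 40 (10%), against 7.18%. A match describes these letters and shows no binding.

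Each array was made from 1 tissue sample, and the mean signal per array lay between 94.7 and 219, the lowest and the highest both in spleen at 0.1 mg/ml. Between 35.8% and 43.2% of the probes were detected above background. The hepatocyte markers lay where the labels put them: all 7 measured were lower in spleen than in liver, and 5 of them were also kept in spleen. All 4 B cell markers measured were higher in spleen. They passed the detection filter there and not in liver, so the filter set that direction and it is no check of the labels. Levels are log2 intensities after background correction with an offset of 16, so an undetected probe reads about 4.2 and small signals are compressed. A gene was tested in a tissue when a probe was detected on at least 2 of its arrays. Of the 54 family genes, 32 passed in spleen (21 ligands, 11 receptors) and 22 in liver (18 ligands, 4 receptors), 35 in at least 1 tissue. The other 19 passed in neither, among them the monocyte attractant gene Ccl2, its receptor gene Ccr2 and the neutrophil attractant genes Cxcl2 and Cxcl3. The design names 2 mice per group, and the labels do not tie each array to a mouse. The p-values therefore measure the spread between these arrays only. The lone spleen control is assumed to vary as the treated spleens do.

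The tissue comparison asked which members each organ expresses, over all mice and with each dose weighted equally. In spleen, 20 of the 35 family genes were higher than in liver and 6 were lower (limma, Benjamini-Hochberg adjusted p under 0.05), led upwards by the B and T cell zone system and downwards by the liver's Cxcl1, Ccl9, Ccl27a, Cxcl12 and Ccl25. Over all 16179 features tested, 62.3% were called, 36.7% higher and 25.6% lower, so that 26 of 35 is not far above the share of the array as a whole. In 15 genes every spleen lay above every liver and in 5 below, where 28.4% and 20% of all features did so. The median log2 difference of the family was 0.49, against 0.07 for all features. It ran from -0.32, over the 6 genes with a detection p under 0.01 on every array, to 0.67, with each tissue normalized on its own, and was 0.04 with no filter and 0.15 under 75th percentile scaling. In bulk tissue, fewer cells of a type and less RNA per cell cannot be told apart. For this comparison both tissues were normalized together.

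The ligands and receptors that place lymphocytes in the spleen differed most. Ccl21a, a Ccr7 ligand, had log2 intensities of 9.77 to 10.85 on the 5 spleen arrays (median 10.22), against at most 4.84 on the 6 liver arrays (median 4.51), a log2 difference of 5.83 ± 0.22 (SE; adjusted p = 1.46e-08). Cxcl13 read 9.34 to 10.87 in spleen (median 10.60), against 4.26 to 6.17 in liver (median 4.71), a difference of 5.46 ± 0.27 (adjusted p = 9.3e-08). The tissues did not overlap for either gene.
Cxcr5, the receptor for Cxcl13 on B cells, was not detected on any liver array and was at least 35.4-fold higher in spleen (adjusted p = 1.01e-08). Ccr6, a receptor of B cells and dendritic cells, was at least 32.8-fold higher (adjusted p = 1.01e-05), and Ccl21c at least 31.7-fold (adjusted p = 2.28e-08). Ccl19 was higher by 4.96 on the log2 scale and Ccr7 by 2.33. Probes for Ccl21a, Ccl21b and Ccl21c may capture one another's transcripts, because these gene copies are nearly identical, and the same holds for Ccl27a and Ccl27b. Of the 8 homing genes measured, 7 were thus higher in spleen, where 36.7% of all features were called higher, and the exception was Cxcl12. Cxcr5, Ccr6 and Ccl21c, detected on no liver array, passed the detection filter through spleen alone, so the filter set their direction.

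Of the inducible ligands, Ccl5, Ccl4, Ccl3, Cxcl10 and Cxcl9 were higher in spleen and Cxcl11 was lower. Ccl5 read 8.18 to 9.93 in spleen (median 9.64), against 4.87 to 6.26 in liver (median 5.16), a log2 difference of 3.94 ± 0.25 (adjusted p = 6.53e-07). Ccl4 was higher by 1.80 and Cxcr3, not detected in liver, was at least 2.32-fold higher. Cxcl10 read 4.57 to 6.99 in spleen (median 4.97), against 4.18 to 5.26 in liver (median 4.31), a difference of 0.99 ± 0.16 (adjusted p = 4.22e-04), and the tissues overlapped.
Cxcl9 was the weakest of the 3 genes named in the family's rule: it read 6.81 to 9.10 in spleen (median 7.33), against 5.97 to 8.77 in liver (median 6.64), a difference of 0.79 ± 0.28 (adjusted p = 0.0303). This call ended under several alternatives. Its adjusted p was 0.0723 after scaling to the 75th percentile, 0.0628 with an offset of 50, 0.104 with no detection filter and 0.0640 with replicates 62 and 62_86 averaged. It was 0.0728 without liver control replicate 1, 0.0760 without liver 0.1 mg/ml replicate 55 and 0.0630 without spleen 0.1 mg/ml replicate 56. It was 0.0522 and 0.0733 without spleen replicate 62 and without 62_86.

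Of the remaining spleen-side genes, Cxcr4, the receptor for Cxcl12, was higher by 3.46, and Cxcl16, a membrane-bound ligand, by 0.91. Cxcr2, a neutrophil receptor, was at least 1.41-fold higher, Xcl1, a ligand made by killer cells, at least 1.34-fold, Ccl3 at least 1.27-fold and Cxcr6, the receptor for Cxcl16, at least 1.13-fold. Cx3cr1, a receptor of monocytes and macrophages, was higher by 0.69 and its ligand Cx3cl1 by 0.28. All 11 receptors measured read higher in spleen, and 8 of them passed, where 36.7% of all features were called higher. Most of these receptors passed the detection filter in spleen but not in liver, so the filter largely set their shared direction.
When arrays were scaled by their 75th percentile instead, this moved the median of all features to -0.21 and the split of all calls to 4434 higher of 9344, against 5945 of 10086. Under it 7 family calls ended (Ccl3, Cx3cl1, Cx3cr1, Cxcl9, Cxcr2, Cxcr6 and Xcl1) and 4 genes that had not passed were called (Ccl6, Ccl17, Ccl20 and Ccl24).

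On the liver side, Cxcl1, a neutrophil attractant, read 4.37 to 4.83 in spleen (median 4.69), against 7.55 to 10.12 in liver (median 8.35), a log2 difference of -3.87 ± 0.40 (adjusted p = 1.89e-05). Ccl9, a macrophage-derived ligand of Ccr1, read 5.99 to 8.02 in spleen (median 7.07), against 9.38 to 9.88 in liver (median 9.53), a difference of -2.72 ± 0.16 (adjusted p = 4.19e-07). Neither gene's tissues overlapped.
Ccl27a, a skin ligand of Ccr10, differed by -1.92 and Ccl25, a gut-homing ligand of Ccr9, by -1.18. Cxcl11, detected on 3 livers and no spleen, was at least 1.11-fold lower in spleen (adjusted p = 0.0219). The Cxcl11 call ended without liver 0.1 mg/ml replicate 55, without liver 0.2 mg/ml replicate 85 and without spleen 0.2 mg/ml replicate 62. Cxcl12, which retains cells through Cxcr4, differed by -1.44 ± 0.14 (adjusted p = 1.16e-05) on its brightest probe, but its other 2 detected probes gave -0.59 (adjusted p = 0.00146) and 0.12 (adjusted p = 0.448, every probe tested), so the direction depends on the probe.

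**Figure D1:**
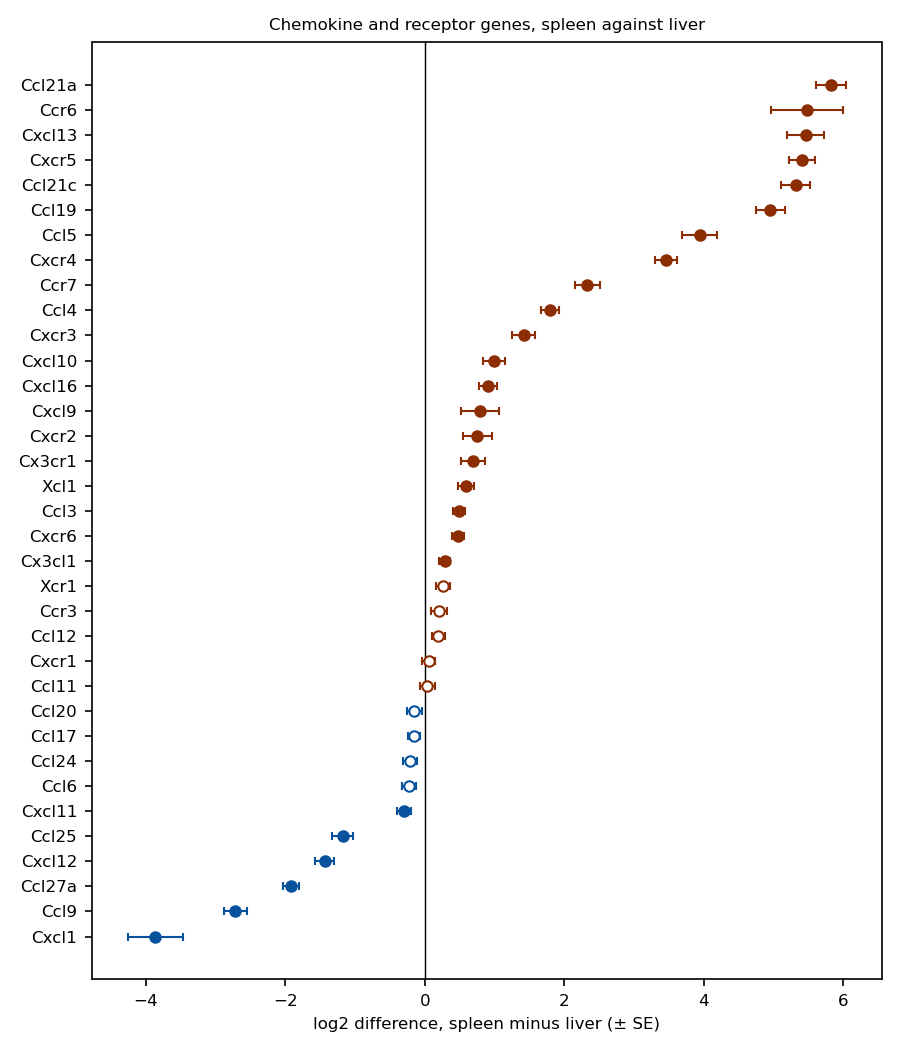
Log2 difference, spleen minus liver, with its standard error for the 35 family genes tested, from the highest (Ccl21a, 5.83) to the lowest (Cxcl1, -3.87). Filled points are genes with an adjusted p under 0.05 (20 higher, 6 lower) and open points are the other 9.

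The treatment comparisons asked how Curaxin-137 changed the family in each organ. No family gene passed the adjusted threshold in any of the 8 comparisons within a tissue (limma, 0 of 22 genes in liver and 0 of 32 in spleen in each). Over all features 0% were called in 7 of them and 0.00705% in spleen at 0.2 against 0.1 mg/ml, where 1 of 14179 features passed. The values that follow are therefore described with their unadjusted counts, and no member is said to have changed. At the higher dose Cxcl9, Ccl4 and Ccl5 read highest in both organs, Cxcl10 and Ccl3 in spleen and Cxcl13 in liver.

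Cxcl9 in spleen had log2 intensities of 7.35 in the control, 7.61 and 7.10 at 0.1 mg/ml and 8.99 and 9.18 at 0.2 mg/ml. In liver it read 5.66 and 6.38 in the controls, 6.30 and 5.83 at 0.1 mg/ml and 7.02 and 8.64 at 0.2 mg/ml. In each organ both arrays at 0.2 mg/ml lay above all others, and the arrays at 0.1 mg/ml lay around the control values. The difference between 0.2 mg/ml and control was 1.73 ± 0.32 in spleen (adjusted p = 0.314) and 1.81 ± 0.48 in liver (adjusted p = 0.364). That between 0.2 and 0.1 mg/ml was 1.73 ± 0.26 in spleen (adjusted p = 0.303) and 1.76 ± 0.48 in liver (adjusted p = 0.402).
At 0.1 mg/ml the difference from control was 0.00 ± 0.32 in spleen (adjusted p = 0.999) and 0.05 ± 0.48 in liver (adjusted p = 0.998). In liver the value at 0.2 mg/ml rested largely on replicate 85: the difference from control was 1.00 without it and 2.62 without replicate 73. Without liver control replicate 25 it was 2.14, against a lone control. In spleen, with single arrays left out, Cxcl9 at 0.2 mg/ml differed by 1.64 to 1.84 from control and by 1.48 to 1.95 from 0.1 mg/ml. Without replicate 56 or 32 the spread was set by replicates 62 and 62_86 alone.

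Cxcl10 in spleen read 4.69 in the control, 5.20 and 4.83 at 0.1 mg/ml and 7.17 and 7.28 at 0.2 mg/ml. In liver it was detected on 1 of 6 arrays, replicate 85 at 0.2 mg/ml, at 4.99, with the other 5 between 4.18 and 4.35, so it was not tested there. Only the probe described here was detected; the second Cxcl10 probe was undetected on all 11 arrays. Both spleen arrays at 0.2 mg/ml lay far above the other 3, which were close to the limit of detection.
The difference of spleen at 0.2 mg/ml from control was 2.53 ± 0.29, a 5.79-fold higher level (unadjusted p = 6.31e-05, adjusted p = 0.128), and from 0.1 mg/ml it was 2.21 ± 0.24, or 4.61-fold (unadjusted p = 4.21e-05, adjusted p = 0.199). At 0.1 mg/ml it was 0.33 ± 0.29 from control (adjusted p = 0.755). With both tissues fitted together, the 2 comparisons at 0.2 mg/ml passed, at 2.37 (adjusted p = 0.0212) and 2.11 (adjusted p = 0.0228). That fit also takes its spread from the livers, most of them at background for this probe. Its passes therefore do not show a firmer difference in spleen. With single spleen arrays left out, the differences from control and from 0.1 mg/ml ran from 2.22 to 2.64 and from 2.07 to 2.31. Leaving out a treated array leaves its dose with 1 array, so only the differences are given. Leaving out 56 or 32 leaves the spread to be estimated from replicates 62 and 62_86 alone, which share a number in their labels and correlated at 0.989, against 0.948 for replicates 56 and 32.

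Ccl5 was detected on every array. In spleen it read 9.12 in the control, 9.64 and 8.39 at 0.1 mg/ml and 9.88 and 9.89 at 0.2 mg/ml. In liver it read 4.67 and 4.80 in the controls, 5.01 and 4.78 at 0.1 mg/ml and 5.31 and 5.95 at 0.2 mg/ml. Arrays at 0.2 mg/ml again lay above the rest in both organs, while the lower-dose spleens lay on either side of the control.
The difference between 0.2 mg/ml and control was 0.76 ± 0.49 in spleen (adjusted p = 1.00) and 0.90 ± 0.23 in liver (adjusted p = 0.351). Between 0.2 and 0.1 mg/ml it was 0.87 ± 0.40 in spleen (adjusted p = 0.572) and 0.73 ± 0.23 in liver (adjusted p = 0.442). At 0.1 mg/ml it was -0.11 ± 0.49 in spleen (adjusted p = 0.965) and 0.16 ± 0.23 in liver (adjusted p = 0.987). The spleen value at 0.1 mg/ml took its sign from 1 array: it was -0.73 without replicate 56 and 0.52 without replicate 32. Each of these sets 1 array against 1 control. The value was 0.07 after scaling to the 75th percentile. Without replicate 56 the difference at 0.2 mg/ml was 0.76 from control and 1.50 from 0.1 mg/ml.

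**Figure D2:**
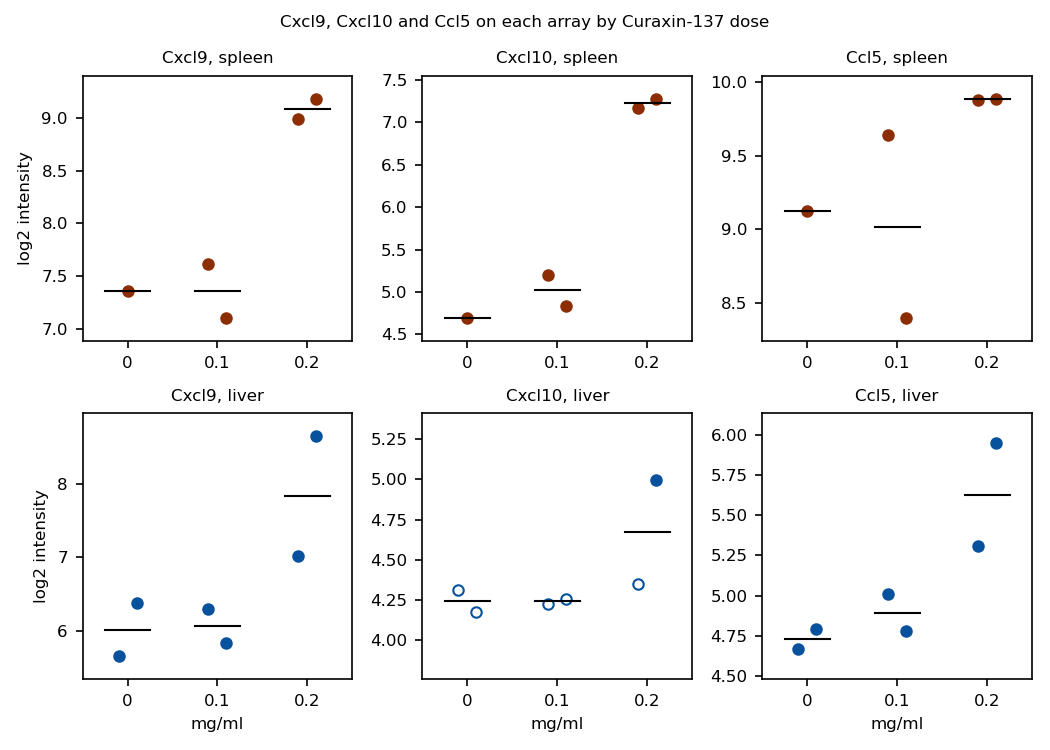
Log2 intensity of Cxcl9, Cxcl10 and Ccl5 on each spleen array (top row) and liver array (bottom row) against the Curaxin-137 concentration in the drinking water (0, 0.1 and 0.2 mg/ml). Points are single arrays, open where the probe was not detected, lines are group means, and the vertical scales differ; the 2 arrays at 0.2 mg/ml are the highest of each panel.

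In spleen at 0.2 mg/ml, 8 of 32 family genes had an unadjusted p under 0.05 against control, all 8 higher, where 5.68% of all features did, 3.26% higher and 2.42% lower. The family's median difference was 0.08, against 0.00 for all features. Besides Cxcl10 and Cxcl9, these were Ccl4 at 1.79 ± 0.29 (adjusted p = 0.259), Cxcl12 at 1.26 ± 0.28 (adjusted p = 0.417), Ccl9 at 0.99, Ccl3 at 0.91, Ccl24, at least 1.67-fold, and Xcl1, at least 2.03-fold, the last 4 with adjusted p-values from 0.637 to 0.846. All 8 are ligands. Ccl24 and Xcl1 were not detected in the control, so they passed the filter through treated spleens alone. Each rests on 1 control array, and 17 of 32 genes had both arrays above it and 9 below it, where 36.8% and 38.5% of all features did.

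Ccl4, a macrophage and T cell attractant, read 5.79 in the control spleen, 6.55 and 6.41 at 0.1 mg/ml and 7.38 and 7.76 at 0.2 mg/ml. Its second detected probe gave 4.98 and 4.72 at 0.1 mg/ml and 5.08 and 5.37 at 0.2 mg/ml, and was not detected in the control. Both probes placed the groups in the order of dose, and on neither did they overlap. In liver Ccl4 was detected only at 0.2 mg/ml, at 4.64 and 5.06, at least 1.39-fold above control (adjusted p = 0.383) and at least 1.37-fold above 0.1 mg/ml (adjusted p = 0.432).
Ccl3, encoded beside Ccl4 and binding the same receptor, read 4.60 in the control spleen, 4.65 and 4.64 at 0.1 mg/ml and 5.43 and 5.59 at 0.2 mg/ml. The first 3 arrays read alike and the higher dose stands apart from them. Ccl3 was not detected in liver.

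Cxcl12 showed how far a member can depend on the probe. Its brightest probe read 8.95 in the control spleen, 9.89 and 9.61 at 0.1 mg/ml and 10.17 and 10.25 at 0.2 mg/ml. Another probe read 6.93 in the control, 6.77 and 6.78 at 0.1 mg/ml and 8.34 and 8.00 at 0.2 mg/ml. The dimmest probe read 6.39 in the control, 6.18 and 6.48 at 0.1 mg/ml and 7.70 and 7.39 at 0.2 mg/ml. All 3 probes put the spleens at 0.2 mg/ml highest, by 1.26, 1.24 and 1.15 over control. At 0.1 mg/ml they gave 0.80, -0.16 and -0.06, so a higher reading at the lower dose came from the brightest probe alone.

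In spleen at 0.1 mg/ml, 5 of 32 family genes had an unadjusted p under 0.05 against control, of which 4 were higher and 1 lower, where 9.79% of all features did (4.66% higher and 5.13% lower). Both arrays lay above the control in 12 genes and below it in 5, where 34.3% and 32.3% of all features did. The median difference of the family was 0.03, against 0.02 for all features. Ccl9 gave 1.53 ± 0.38 (adjusted p = 0.457), Cxcr4 0.88, Cxcl12 0.80, and Xcl1, not detected in the control, was at least 1.68-fold higher. Cx3cl1, the membrane-bound ligand of Cx3cr1, gave -0.70 (adjusted p = 0.498 for Cxcr4 and Cx3cl1, 0.494 for Cxcl12 and 0.510 for Xcl1). Ccl4 gave 0.69 (adjusted p = 0.512), Ccr6 -2.37 (adjusted p = 0.528) and Cx3cr1 -0.62 (adjusted p = 0.726).
Ccl9 read 6.29 in the control spleen, 7.40 and 8.24 at 0.1 mg/ml and 7.22 and 7.36 at 0.2 mg/ml, with the highest value on replicate 32. On that array the 8 neutrophil markers, which include genes of immature neutrophils, summed to 14701 intensity units, against 2792 on replicate 56 and 1640 in the control, and 3530 and 3852 at 0.2 mg/ml. All 8 read higher than control at 0.1 mg/ml. The 4 red cell precursor markers were also highest on replicate 32, at 32419 units, against 20535 on replicate 56, 17600 in the control, and 18724 and 20028 at 0.2 mg/ml. The part of either cell type in the Ccl9 and Cxcr4 values was not tested.

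Ccr6 varied most between replicates. It read 10.56 in the control spleen, 6.65 on replicate 56 and 9.72 on replicate 32 at 0.1 mg/ml, and 10.52 and 9.93 at 0.2 mg/ml. Its second probe read 9.0 in the control, 5.08 on replicate 56, 7.75 on replicate 32, and 8.60 and 8.49 at 0.2 mg/ml, so both probes were lowest on replicate 56. The summed B cell markers were highest on that same array, at 7859, against 3598 on replicate 32, 6850 in the control, and 5179 and 5789 at 0.2 mg/ml. The members were divided: Blk, Cd22 and Cd79b read highest on replicate 56. Ms4a1 read lowest there, at 6.81, against 6.85 on replicate 32, 7.61 in the control, and 7.54 and 7.53 at 0.2 mg/ml. The part of B cells in the Ccr6 values was not tested. Cx3cr1 was also undetected on replicate 56, at 4.36, and read 5.58 on replicate 32.
In the fit of all 5 arrays Ccr6 did not pass at 0.1 mg/ml against control. Fits without a treated spleen leave a dose group unreplicated, so no call is taken from them.

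Between the doses in spleen, 6 of 32 family genes had an unadjusted p under 0.05, 5 higher at 0.2 mg/ml and 1 lower, where 9.01% of all features did (4.93% higher and 4.08% lower). The median was 0.24, against -0.01 for all features, but it was 0.08 without replicate 32, 0.16 without 62_86, 0.11 with both tissues fitted together and 0.02 with no filter. In all, 13 genes lay wholly above the lower dose and 4 wholly below, where 20.4% and 20% of all features did. Cxcl10 and Cxcl9 led, followed by Ccl4 at 1.10 ± 0.24 (adjusted p = 0.465), Ccl3 at 0.87 (adjusted p = 0.480) and Ccl24, which draws eosinophils, at 0.70 (adjusted p = 0.518). Ccr3, the receptor for Ccl24, gave 0.53 (adjusted p = 0.553) and Ccr6 2.04 (adjusted p = 0.556).
Cxcr4 was the exception in direction. It read 8.06 in the control spleen, 9.14 and 8.74 at 0.1 mg/ml and 7.92 and 7.52 at 0.2 mg/ml, a difference of -1.22 ± 0.26 between the doses (adjusted p = 0.465). Its ligand Cxcl12 differed by 0.46, 1.40 and 1.21 on its 3 probes. Over both doses together, 7 of 32 genes had an unadjusted p under 0.05 against control, 6 higher and 1 lower, where 7.24% of all features did, 3.62% in each direction. Treated arrays all lay above the control in 11 genes and below it in 3, where 22% and 22.2% of all features did. Cxcl10 at 1.43, Ccl9 at 1.26, Ccl4 at 1.24, Cxcl12 at 1.03, Cxcl9 at 0.87 and Xcl1, at least 1.85-fold, were higher, and Cx3cl1 gave -0.62, with adjusted p-values from 0.403 to 0.650. Ccl24, at least 1.31-fold, and Ccl5 at 0.33 did not reach that mark.

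In liver at 0.2 mg/ml, 4 of 22 family genes had an unadjusted p under 0.05 against control, all ligands and all higher, where 8.78% of all features did, 4.94% higher and 3.84% lower. The arrays lay wholly above control in 6 genes and below in 2, where 20.2% and 18.5% of all features did. The median of the family was 0.06, against 0.01. Cxcl13 led, at 1.12 ± 0.21 (unadjusted p = 6.97e-04, adjusted p = 0.288), followed by Ccl5, Cxcl9 and Ccl4. Ccl4 was detected in liver only at 0.2 mg/ml and passed the filter through that group alone, so the filter set its direction. Cxcl16 gave 0.29 (adjusted p = 0.643), Ccl9 0.25, Ccr3 0.16 and Cxcl11 -0.15.
Cxcl13 read 4.39 and 4.58 in the control livers, 4.52 and 4.25 at 0.1 mg/ml and 5.35 and 5.86 at 0.2 mg/ml. Both higher-dose livers lay above the other 4, which were near the limit of detection. In spleen, where the gene is much brighter, it read 10.65 in the control, 10.67 and 9.38 at 0.1 mg/ml and 10.43 and 10.14 at 0.2 mg/ml, with no such separation.

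Between the doses in liver, Cxcl13, Cxcl9, Ccl4 and Ccl5 had an unadjusted p under 0.05, or 4 of 22 genes, all higher at 0.2 mg/ml, where 9.51% of all features did, 5.12% higher and 4.38% lower. The direction of Ccl4 was again set by the filter. Cxcl13 gave 1.22 ± 0.21 (adjusted p = 0.270). The next genes were Ccl17, at least 1.07-fold lower at 0.2 mg/ml, Ccl9 at 0.34, Ccr3, at least 1.07-fold higher, and Ccl6 at 0.26, with adjusted p-values from 0.528 to 0.635. The median was 0.14, against 0.01 for all features, and 10 of 22 genes lay wholly above the lower dose and 1 below, where 25.3% and 22.8% of all features did. Over both doses, Cxcl13 at 0.51 and Ccl5 at 0.53 had an unadjusted p under 0.05 against control (adjusted p = 0.823 for each), which is 2 of 22 genes, where 5.93% of all features did, 3.37% higher and 2.56% lower. Only 1 gene lay wholly above control and 2 below, where 6.91% and 5.86% of all features did. Cxcl9 at 0.93, Ccl4, at least 1.13-fold, Cxcl11 at -0.23, Cxcl16 at 0.23, Ccl19 at 0.17 and Ccl11, at least 1.04-fold, came next.

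At 0.1 mg/ml in liver, 0 of 22 family genes had an unadjusted p under 0.05 against control, where 4.01% of all features did, 2.13% higher and 1.88% lower. The arrays lay wholly above control in 3 genes and below in 4, where 15.1% of all features did in each direction. The median was -0.01, against 0.00 for all features. The smallest p-values belonged to Ccl17, at least 1.10-fold higher, and Cxcl11, at least 1.12-fold lower, both near the limit of detection. Cxcl1 gave -0.77, Cxcl12 -0.20, Ccl19 0.20, Ccl6 -0.17, Cxcl16 0.16 and Ccl11 at least 1.06-fold higher, each with an adjusted p of 0.984.
Cxcl1 read 7.29 and 10.19 in the control livers, 8.08 and 7.85 at 0.1 mg/ml and 8.63 and 8.25 at 0.2 mg/ml. The 2 controls enclosed every treated liver, so the direction of Cxcl1 at 0.2 mg/ml depended on which control was left out. Control replicate 25, the array with the high Cxcl1 value, also had the highest neutrophil marker S100a8, at 9.81, against 4.56 to 5.89 on the other 5 livers. Its part in the Cxcl1 value was not tested.

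**Figure D3:**
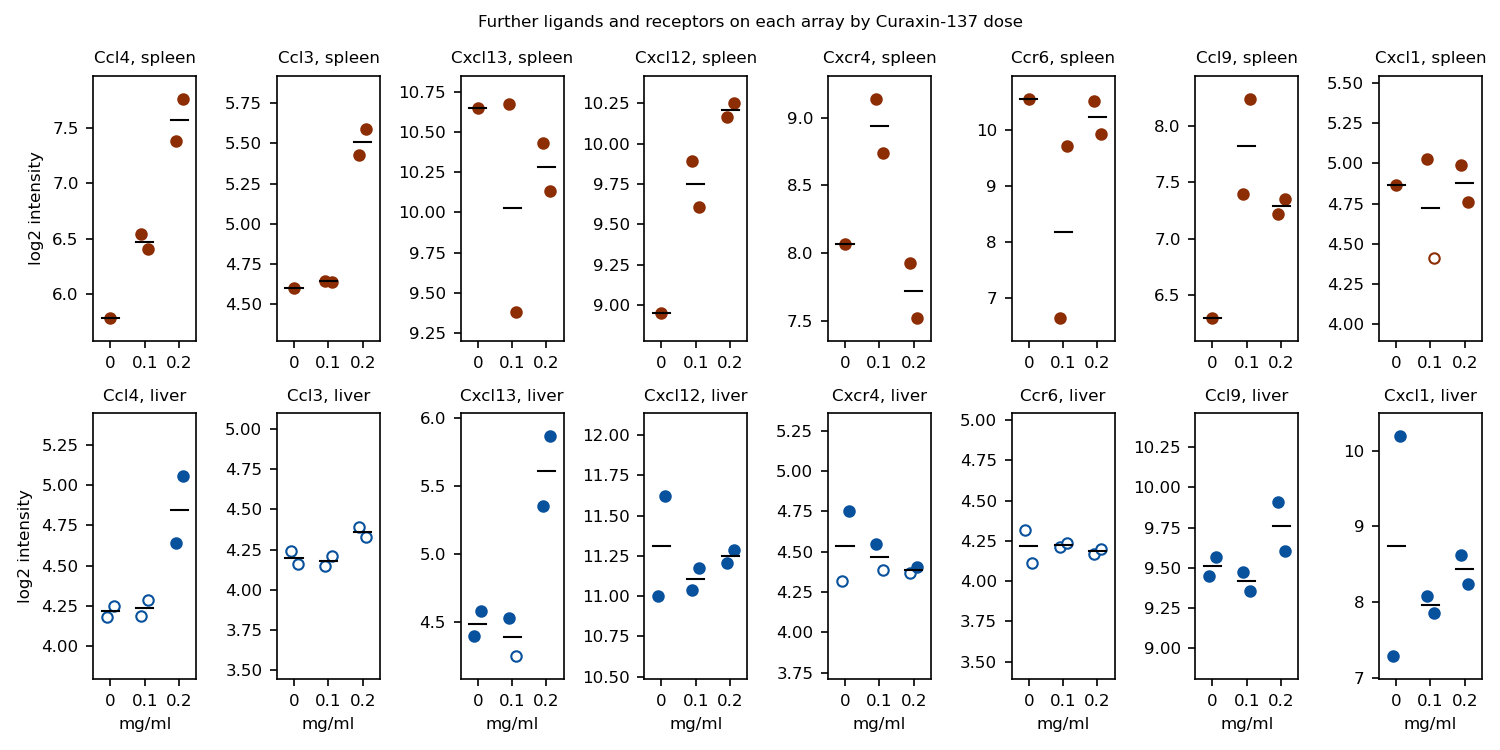
Log2 intensity of 6 further ligands (Ccl4, Ccl3, Cxcl13, Cxcl12, Ccl9, Cxcl1) and of the receptors Cxcr4 and Ccr6 on each spleen array (top row) and liver array (bottom row) against the Curaxin-137 concentration in mg/ml, on the brightest probe of each gene. Points are single arrays, open where not detected, lines are group means and the vertical scales differ; Ccl4 and Ccl3 stand highest at 0.2 mg/ml in spleen, Cxcl13 in liver, and Ccr6 is low on 1 spleen at 0.1 mg/ml.

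The fit of all 11 arrays tested whether spleen and liver responded differently. No family gene passed for the response to 0.2 against 0.1 mg/ml, where 5 of 35 had an unadjusted p under 0.05 and 8.02% of all features did (0.00618% passed adjustment). Cxcl10 differed by 1.54 ± 0.36, spleen minus liver (adjusted p = 0.390), Cxcr4 by -1.23 (adjusted p = 0.518), Ccl9 by -0.88, Ccl3 by 0.48 and Ccl17 by 0.44. Cxcr4 was detected on 3 of 6 livers and Cxcl10 on 1. Ccl3 and Ccr6, like Xcl1 and Cx3cl1 below, were detected on no liver, and Ccl17 on no spleen, so that the value of each is set by the organ that detected it. Ccr6 gave 2.35, Cxcl13 -1.13 and Ccl6 -0.48, with adjusted p-values from 0.654 to 0.672. Cxcl9 differed by 0.24 ± 0.62 (adjusted p = 0.957) and Ccl5 by 0.23 ± 0.57 (adjusted p = 0.955), errors too wide to show that the organs responded alike.
For both doses against control, again 0 of 35 passed, 7 had an unadjusted p under 0.05 and 9.12% of all features did (0.0371% passed adjustment). Cxcl12 on its brightest probe differed by 1.39 ± 0.31 (adjusted p = 0.268), but by 0.35 and 0.38 on its other 2 probes. Ccl9 differed by 1.22 (adjusted p = 0.340), Cxcl10 by 1.03, Ccl4 by 0.79, Xcl1 by 0.67, Ccl24 by 0.57 and Cx3cl1 by -0.47. Cxcl13 gave -1.16 (adjusted p = 0.621), Ccl5 -0.19 ± 0.57 (adjusted p = 0.958) and Cxcl9 0.08 ± 0.62 (adjusted p = 0.985).

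A comparison of 0.2 with 0.1 mg/ml averaged over both organs was added after the data had been seen. It does not use the control arrays. No family gene passed; 11 of 35 reached an unadjusted p under 0.05, 9 of them higher and 2 lower, where 13% of all features did (7.19% higher and 5.77% lower), and 0.0371% of all features passed adjustment. Cxcl10 gave 1.34 ± 0.18 (adjusted p = 0.0567), Ccl4 0.97 ± 0.14 (adjusted p = 0.0740), Cxcl9 1.79 ± 0.31 (adjusted p = 0.108), Ccl3 0.47 (adjusted p = 0.125), Cxcr4 -0.74 (adjusted p = 0.171) and Ccl5 0.90 ± 0.29 (adjusted p = 0.247). Ccl24 at 0.37 and Ccr3 at 0.41 came next. For Cxcl10, detected on 1 of 6 livers, and Ccl3, detected on none, the liver values in this average lie at or near background.
In 8 of 35 genes the higher dose lay wholly above the lower one in each organ, where 6.24% of all features did, and in 0 wholly below, where 5.45% did. The median was 0.09, against 0.00. Cxcl10 passed with no background correction (1.02, adjusted p = 0.0347), with the authors' values (0.98, 0.0324), with intensity-trend moderation (1.34, 0.0228) and with each tissue normalized on its own (1.32, 0.0487). Without spleen replicate 56 Ccl5 gave 1.27. Without liver 0.2 mg/ml replicate 73, Cxcl10 gave 1.58 and Cxcl9 gave 2.14.

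**Figure D4:**
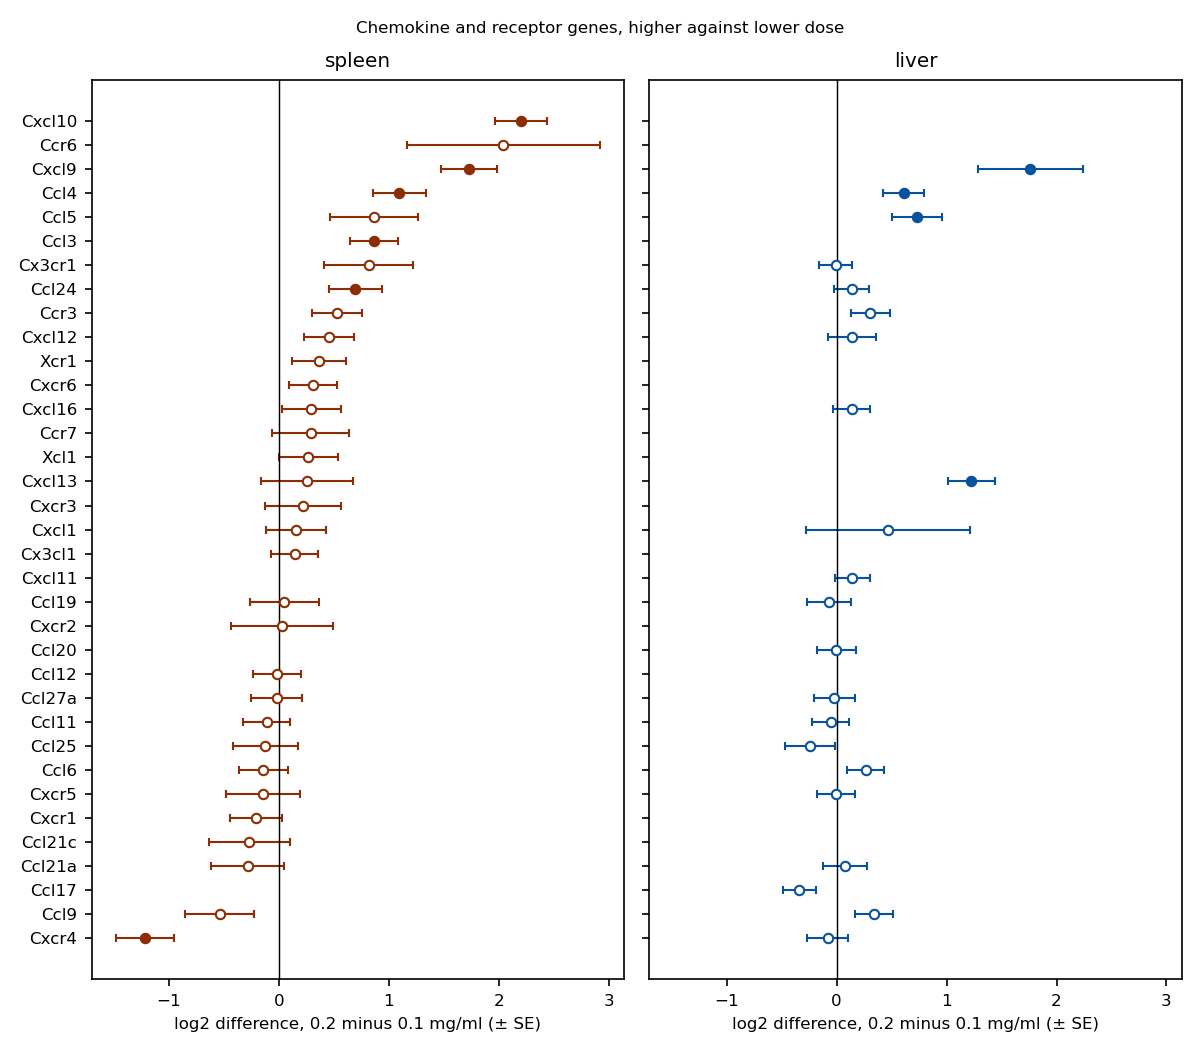
Log2 difference between 0.2 and 0.1 mg/ml Curaxin-137 with its standard error for every family gene tested in spleen (left, 32 genes) and liver (right, 22 genes). Filled points have an unadjusted p under 0.05 and none passed adjustment; Cxcl9 lies near 1.75 in both organs, Cxcl10 at 2.21 in spleen, Cxcl13 at 1.22 in liver and Cxcr4 at -1.22 in spleen.

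The genes around the family were read from lists chosen by pathway. Of the interferon-gamma axis, which runs from the cytokine Ifng through its receptor and Jak kinases to the Irf factors, 11 of 12 genes read higher at 0.2 than at 0.1 mg/ml in spleen, with a median of 0.52, against 6888 of all 14179 features and a median of -0.01. Of these, 5 had an unadjusted p under 0.05, all higher, where 9.01% of all features did (4.93% higher). None passed adjustment. They were Irf9 at 0.78 (adjusted p = 0.498), Ciita at 0.80, Irf1 at 0.83, Ifng at 0.77 (adjusted p = 0.518 for these 3) and Jak1 at 0.66 (adjusted p = 0.545). Against control the list was divided, with 6 of 12 higher at 0.2 mg/ml and a median of 0.03, and 5 of 12 higher at 0.1 mg/ml, with a median of -0.40.
Ifng in spleen read 4.25 in the control, 4.53 and 4.24 at 0.1 mg/ml and 4.93 and 5.39 at 0.2 mg/ml, and it was not detected in liver. Irf1, a factor induced by interferon-gamma, read 11.12 in the control spleen, 10.76 and 10.31 at 0.1 mg/ml and 11.52 and 11.21 at 0.2 mg/ml. The control thus lay nearer to the higher dose for Irf1 and nearer to the lower dose for Ifng. In liver 7 of 10 genes of the axis read higher at 0.2 than at 0.1 mg/ml (median 0.20), against 6594 of all 12800 features, led by Irf1 at 0.61 (adjusted p = 0.409).

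Of the signalling genes below the receptors, 13 of 18 in spleen read higher at 0.2 than at 0.1 mg/ml, with a median of 0.11 and 0 passing, and the smallest p belonged to the receptor-desensitizing arrestin gene Arrb1, at -1.17 (adjusted p = 0.465). In liver 10 of 16 read higher, with a median of 0.07, among them Rgs1, a brake on receptor signalling, at 0.94, and Vav1, an exchange factor of blood cells, at 0.88 (adjusted p = 0.389 for both). NF-kB feedback and cytokine genes gave a median of 0.04 in spleen (7 of 11 higher) and 0.11 in liver (6 of 8 higher), with Il1b at 0.71 in liver (adjusted p = 0.476). No gene of the 4 pathway lists passed in a treatment comparison.

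Marker lists for the cell types that make or receive these ligands were read beside the members. In spleen at 0.2 against 0.1 mg/ml, medians over the 13 lists ran from -0.97 for neutrophils (0 of 8 higher) to 0.70 for dendritic cells (4 of 5 higher). The neutrophil level at 0.1 mg/ml was set largely by replicate 32, where the markers summed to 14701 units. Replicate 56, at 2792 units, lay below both arrays at 0.2 mg/ml, at 3530 and 3852. Natural killer cells stood at 0.39 (6 of 6), fibroblasts and stroma at 0.38 (4 of 6), macrophages at 0.36 (5 of 8), T cells at 0.32 (6 of 7), endothelium at 0.27 (6 of 6) and B cells at 0.13 (3 of 4). Hepatocytes stood at -0.02 (2 of 5), monocytes at -0.03 (1 of 3), platelets at -0.26 (2 of 6), pancreatic acinar cells at -0.60 (0 of 1) and red cell precursors at -0.96 (1 of 4). Natural killer markers summed to 1484 and 1830 intensity units at 0.2 mg/ml, against 958 and 1103 at 0.1 mg/ml and 1868 in the control. The defining natural killer marker Ncr1 was not detected in spleen. Dendritic cell markers summed to 385 and 393 units at 0.2 mg/ml, against 181 and 309 at 0.1 mg/ml and 540 in the control. For both lists the control thus lay above the higher dose.
At 0.2 mg/ml against control in spleen, macrophage markers read higher in 6 of 8 genes (median 0.54) and summed to 5585 and 6147 units, against 3593 in the control. Monocyte markers read higher in 3 of 3 (median 0.28), with 738 and 835 units, against 312 in the control. Ly6c1 carried that sum, at 9.48 and 9.31 against 7.75. F13a1 read 5.38 and 4.75 against 5.01, and Ccr2 was not detected. Endothelial markers read higher in 5 of 6 (median 0.66), with 1200 and 1239 units, against 665 in the control. Clec4g carried most of that rise, at 9.17 and 9.13 against 6.96, while Pecam1 read 8.64 and 8.38 against 8.56. Neutrophil markers read higher in 8 of 8 (median 0.89). Natural killer markers were divided, 4 of 6 higher (median 0.26), with Nkg7 at 1.52 (adjusted p = 0.370) and Prf1, the brightest in the control, at -1.23 (adjusted p = 0.473). The part of these cells in the spleen ligand values was not tested.
In liver at 0.2 mg/ml against control, macrophage and Kupffer cell markers read higher in 10 of 10 genes, with a median of 0.37, and summed to 1668 to 2100 units, against 1113 to 1604 in the controls and 1400 to 1528 at 0.1 mg/ml. Endothelial markers read higher in 6 of 7 genes, with a median of 0.50, and summed to 2245 to 2618 units at 0.2 mg/ml, against 1485 to 1509 in the controls and 1817 to 2027 at 0.1 mg/ml. The sinusoidal genes Oit3 and Clec4g gave 0.92 (adjusted p = 0.288) and 0.75 (adjusted p = 0.309). Stab2 was the gene of this list that read lower, at -0.19 (adjusted p = 0.766), and Kdr gave 0.01. Clec4g carried most of the endothelial sum, at 10.88 and 11.13 against 10.26 and 10.25 in the controls. Fibroblast and stromal markers, which include stellate cell genes, read higher in 4 of 6, with a median of 0.46, Lum at 0.94 (adjusted p = 0.297) and Reln at 0.82 (adjusted p = 0.370). T cell markers read higher in 4 of 5, with a median of 0.13. Their sum was 302 to 347 units at 0.2 mg/ml, against 348 to 395 in the controls, and was carried by the brightest of them, Cd8b1, the one that read lower (-0.34, adjusted p = 0.685). Hepatocyte markers summed to 47646 to 51752 units over all livers, and to 140 to 176 units over all spleens. No marker passed in a treatment comparison within a tissue. In the tissue difference of both doses against control, where 0.0371% of all features passed, 2 macrophage markers did. These were the complement genes C1qb and C1qc, at 1.90 and 2.18. That contrast rests on the lone spleen control, where they read 7.09 and 7.11. The macrophage markers Timd4 and Marco read lower in spleen at 0.2 mg/ml than in that control. The part of these cells in the liver ligand values was not tested.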

How the data were processed

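Biotin-labelled cRNA from 6 liver and 5 spleen samples was read on Illumina arrays, with 1 array for each, per the labels' protocols. GenomeStudio 1.6.0 produced the deposited intensities, 1 per probe, per the submitters' processing notes. Each deposited intensity has a detection p-value, per the file headers. The deposited log2 values of the series matrix equal the quantile-normalized log2 signals, with a largest gap of 5.0e-09.

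Values were computed with limma 3.58.1 in R 4.3.3: neqc (background from the detection p-values, offset 16, quantile normalization, log2) within each tissue, or over all 11 arrays where tissues were compared. Probes detected (p under 0.05) on at least 2 arrays of a tissue were kept, 1 per gene by highest mean, which left 12800 features in liver, 14179 in spleen and 16179 in both. One mean per group was fitted by lmFit and tested by eBayes with Benjamini-Hochberg adjustment over all features at 0.05. The residual degrees of freedom were 3, 2 and 5. A fold is given as "at least" where no array of the dimmer group detected the probe, against the lowest detected signal of each array. Probe names came from the platform annotation, and all 79 family probes matched RefSeq by Entrez identifier. The steps were tested on simulated data.

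The members, the 4 pathway lists and the 13 marker lists were chosen with earlier results of these data known. Named are Cxcl9, Cxcl10 and Ccl5, every member called, and up to 8 members by smallest p per comparison. Alternatives changed scaling, background, offset, filter, probes, moderation, the joint or separate fit and the averaging of replicates 62 and 62_86, and left out each array in turn. Precision is limited by the small number of arrays.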

Additional observations from a re-analysis of the deposited data

How the results depend on the processing

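No paired analysis was possible because the groups compared share no replicate numbers in the labels. With single settings changed, Cxcl9 turned to -0.11 at 0.1 mg/ml against control in liver and Ccl5 to 0.0741 in spleen, both under 75th percentile scaling. The tissue difference of the response to 0.2 against 0.1 mg/ml turned to -0.31 for Cxcl9 and -0.10 for Ccl5 under that scaling, and to -0.0315 for Cxcl9 with each tissue normalized on its own. That of both doses against control turned to -0.0583 for Cxcl9 with separate normalization and to 0.0554 for Ccl5 with an offset of 50. Cxcl9 in spleen against liver no longer passed at 0.68 (75th percentile), 0.64 (offset 50) and 0.79 (no filter, or replicates 62 and 62_86 averaged). The strict detection filter left 6 calls between the tissues, because only 6 family genes were kept. Fitting both tissues together gave 2 calls in spleen at 0.2 mg/ml against control (Cxcl10 at 2.37, and Ccl4) and 1 against 0.1 mg/ml (Cxcl10 at 2.11). That fit also takes its spread from the livers, where Cxcl10 was mostly undetected. Over both organs, Cxcl10 was the 1 call with no background correction (1.02), the authors' values (0.98), trend moderation (1.34) and separate normalization (1.32). The cause of these moves was not tested.

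Leaving out 1 array gave 24 to 27 calls between tissues. Within liver it gave 0 to 1 calls at 0.1 mg/ml against control, for both doses and between doses, and 0 to 3 at 0.2 mg/ml. Within spleen it gave 1 to 5 at 0.1 mg/ml, 1 to 10 at 0.2 mg/ml, 0 to 10 between doses and 0 to 9 for both doses, most without replicate 56 (5, 10, 10 and 9) and replicate 32 (5, 8, 9 and 8), when replicates 62 and 62_86 alone set the spread. It gave 0 to 2 for each tissue difference and 0 to 6 over both organs. Cxcl9 ran from -0.31 to 0.39, 1.00 to 2.62, 0.95 to 2.57 and 0.52 to 1.33 in liver (0.1, 0.2, 0.2 against 0.1 and both doses). In spleen it ran from -0.24 to 0.26, 1.64 to 1.84, 1.48 to 1.95 and 0.74 to 1.00, between tissues from 0.55 to 1.03, in the tissue differences from -0.50 to 0.96 and -0.29 to 0.44, and over both organs from 1.41 to 2.14. Cxcl10 in spleen ran from 0.11 to 0.55, 2.22 to 2.64, 2.07 to 2.31 and 1.17 to 1.58, between tissues from 0.86 to 1.15, in the tissue differences from 1.10 to 1.98 and 0.82 to 1.26, and over both organs from 1.14 to 1.58. Ccl5 in spleen ran from -0.73 to 0.52, 0.75 to 0.76, 0.24 to 1.50 and 0.02 to 0.64. In liver it ran from 0.05 to 0.27, 0.59 to 1.23, 0.42 to 1.06 and 0.38 to 0.70, between tissues from 3.66 to 4.22, in the tissue differences from -0.51 to 1.08 and -0.50 to 0.17, and over both organs from 0.54 to 1.27. Without the lone spleen control, comparisons with it could not be formed. Leaving out any other array leaves its group with 1 array, so the counts of calls within a tissue do not show that a result holds. The family median moved too: over single settings it ran from 0.02 to 0.26 between doses in spleen, 0.02 to 0.24 between doses in liver, 0.02 to 0.17 at 0.2 mg/ml against control in spleen and 0.02 to 0.16 in liver, where it was -0.03 without replicate 85. Members near the limit of detection have compressed differences.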

Other observations

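Decoy receptors and platelet chemokines outside the naming rule were read beside the family, and 0 of their 8 genes measured in spleen passed in a treatment comparison. Ackr1, a decoy receptor of red cells and venules, read 5.12 in the control spleen, 5.96 and 8.31 at 0.1 mg/ml and 5.74 and 5.40 at 0.2 mg/ml. Its high value was on replicate 32, the array with the highest neutrophil markers (14701 intensity units) and the highest red cell precursor markers (32419 units, with Klf1 at 10.80). Their part in it was not tested. Ackr3, the scavenging receptor for Cxcl12, read 5.14 in the control spleen, 6.06 and 6.23 at 0.1 mg/ml and 6.01 and 6.44 at 0.2 mg/ml. All 4 treated spleen arrays thus lay above the lone control. The difference from control was 1.01 at 0.1 mg/ml (limma, adjusted p = 0.474) and 1.09 at 0.2 mg/ml (adjusted p = 0.598). It was not detected in liver.

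The platelet chemokine genes Pf4 and Ppbp were higher in spleen than in liver by 5.27 and 4.90 on the log2 scale (limma, adjusted p = 6.98e-09 and 1.60e-08), and Ackr4, the scavenger of Ccl19 and Ccl21, differed by -3.99 (adjusted p = 6.88e-08). The ligand genes Ccl19 and Ccl21a and this scavenger were therefore called in opposite directions between the organs.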
